A study of Arabidopsis thaliana with 18 samples.

Results

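The general phenylpropanoid pathway is the trunk through which carbon leaves primary metabolism for flavonoids, sinapate esters and lignin. Phenylalanine ammonia-lyase (PAL) removes ammonia from phenylalanine to give cinnamate. Cinnamate 4-hydroxylase (C4H), a membrane-bound cytochrome P450 that takes its electrons from a reductase, makes p-coumarate, and 4-coumarate:CoA ligase (4CL) joins p-coumarate to coenzyme A. In Arabidopsis seedlings the flavonoids and sinapate esters made from p-coumaroyl-CoA absorb ultraviolet light, and the entry genes are known to respond to light.

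The 6 loci of the set were PAL1 (AT2G37040), PAL2 (AT3G53260), C4H (AT2G30490), 4CL1 (AT1G51680), 4CL2 (AT3G21240) and 4CL3 (AT1G65060), chosen by name for their place at the head of the pathway. Of these 6 loci, 4 had a probe set in the deposited table of 6847 probe sets, namely PAL1, PAL2, C4H and 4CL3, each with 1 probe set that names that locus alone. 4CL1 and 4CL2, the ligases known mainly for their part in lignin formation, are not analysed here.

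RNA from whole Arabidopsis seedlings was measured on 18 Affymetrix ATH1 arrays, short-oligonucleotide arrays that report a gene by the brightness of a probe set. The mutant jmj17-1 and its wild type (WT), both in the Col-0 background, were grown in the dark for 4 days on a medium without sucrose and were harvested then or after 2, 4 or 8 h of light. Each genotype had 3 arrays in the dark group and 2 arrays at each light time, which limits the precision of every value. JMJ17 encodes a histone H3K4 demethylase, and the study asked how it acts on genes during the move from dark to light. No dark array of the later times is used here, so light and seedling age cannot be told apart. The mutant is 1 allele, and JMJ17 itself is not analysed here. The labels do not say whether arrays of a group came from separate cultures, so p-values measure the spread between these samples only. In whole seedlings, fewer cells of a type and less RNA per cell cannot be told apart.

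Some properties of the files bear on all values below. Columns were assigned by the titles in the deposited table, but a second deposited file, keyed by sample, holds the values of another group's array for 16 of the 18 samples. The median residual SD on the log2 scale was 0.118 by the titles and 0.268 by the labels of the second file, and by those labels PAL1, PAL2, C4H and 4CL3 passed as lower, not higher, in jmj17-1 at 2 h against dark and passed in no other comparison with dark. The closing section gives those values. The deposited table is itself a selection, since every probe set in it has an unadjusted p of at most 0.0237 for jmj17-1 at 2 h of light against dark on those arrays. Replicate 2 of the jmj17-1 dark group stood apart, with a correlation of 0.985 to each of the other arrays of its group against 0.995 between those. Its CHS level, for the first enzyme of flavonoid synthesis, was 7.87 on the log2 scale, against 5.24 and 5.76 in the other jmj17-1 dark arrays and 5.77 to 6.64 in WT dark arrays. It also held the highest LHCA1, PAL2 and 4CL3 values of its group. Of the 4 photosynthetic markers 2 were measured, and of these LHCA1 stood at 9.42 ± 0.52 in the jmj17-1 dark group and at 9.22 ± 0.10 in the WT dark group (SD, n = 3 each), and was higher in light in both genotypes. The root gene PIN2 (1 of 3 markers), the epidermal gene PDF1 (1 of 3) and the phloem gene SUC2 (1 of 4) were each lower at 8 h than in the dark in both genotypes, and the xylem and seed storage markers are not analysed here. The part of these tissues in the results was not tested.

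Transcripts of all 4 measured entry enzymes were higher in light than in the dark in both genotypes. At 8 h PAL1 was 2.30-fold above dark in jmj17-1 and 2.00-fold in WT, and 4CL3 was 2.79-fold above dark in jmj17-1 and 3.11-fold in WT. C4H and PAL2 differed from dark at 8 h by 1.98-fold and 1.88-fold in jmj17-1 and by 1.74-fold and 1.70-fold in WT. The plot of log2 intensity by array shows that the arrays of each light group lay above every dark array of the same genotype for each of these genes. The share of all probe sets with such separation is not given here. For jmj17-1 at 2 h against dark, the table was selected on that comparison. Nothing is therefore read from the separation.

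**Figure D1:**
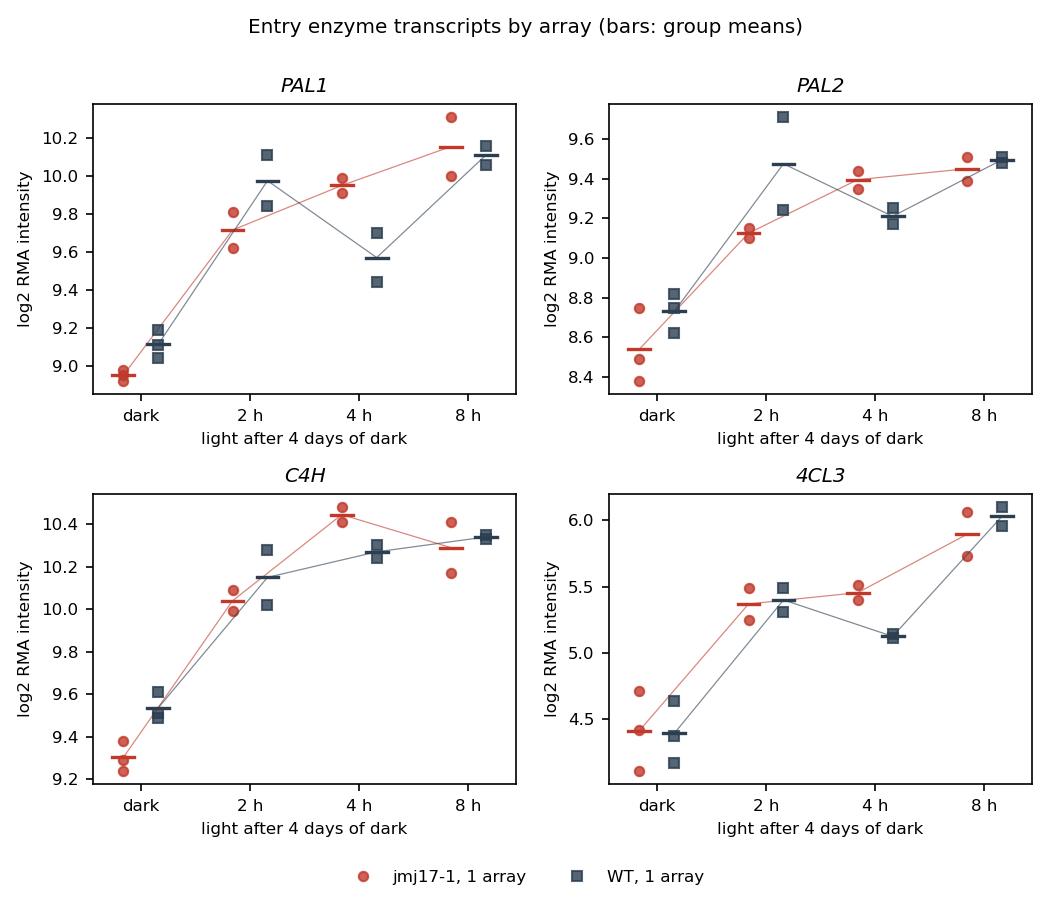
Log2 RMA intensity of PAL1, PAL2, C4H and 4CL3 (vertical axes, a separate scale for each gene) in the dark and after 2, 4 and 8 h of light, with 1 point per array, jmj17-1 as circles, WT as squares and short bars for the means of 3 dark or 2 light arrays, joined by thin lines. At 4 h the jmj17-1 arrays lie above the WT arrays in all 4 panels, as they do for 21.4% of all probe sets, and at 8 h they overlap.

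PAL1, a lyase gene for the first committed step, read 8.98, 8.95 and 8.92 in the jmj17-1 dark arrays on the log2 scale, 9.62 and 9.81 at 2 h, 9.99 and 9.91 at 4 h, and 10.31 and 10.00 at 8 h. In WT it read 9.11, 9.04 and 9.19 in the dark, 9.84 and 10.11 at 2 h, 9.70 and 9.44 at 4 h, and 10.06 and 10.16 at 8 h. The jmj17-1 group means were higher at each later time, whereas the WT mean at 4 h was below that at 2 h. Against dark, PAL1 was higher in jmj17-1 by 0.76 ± 0.11 at 2 h (SE, adjusted p = 1.53e-05), by 1.00 ± 0.11 at 4 h (adjusted p = 1.23e-06) and by 1.20 ± 0.11 at 8 h (adjusted p = 1.02e-07). Every adjusted p here is from limma with Benjamini-Hochberg adjustment over all 6847 probe sets. For jmj17-1 at 2 h against dark, where the table was selected, the adjusted p of each of the 4 genes is no evidence of a change. The same dark arrays enter the jmj17-1 comparisons at 4 and 8 h. In WT it was higher by 0.87 ± 0.11 at 2 h (adjusted p = 4e-06), by 0.46 ± 0.11 at 4 h (adjusted p = 0.00179) and by 1.00 ± 0.11 at 8 h (adjusted p = 7.11e-07).

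PAL2, a lyase gene that acts with PAL1 in flavonoid and lignin synthesis, read 8.49, 8.75 and 8.38 in the jmj17-1 dark arrays, 9.10 and 9.15 at 2 h, 9.44 and 9.35 at 4 h, and 9.51 and 9.39 at 8 h. In WT the values were 8.75, 8.62 and 8.82 in the dark, 9.24 and 9.71 at 2 h, 9.25 and 9.17 at 4 h, and 9.48 and 9.51 at 8 h. The WT arrays at 2 h were the most widely spaced pair for this gene, 0.33 in SD. Relative to dark, PAL2 was higher in jmj17-1 by 0.58, 0.86 and 0.91 at 2, 4 and 8 h (SE 0.13 each, adjusted p = 0.000484, 2e-05 and 8.4e-06), and by 1.01 at 8 h without jmj17-1 dark replicate 2. In WT it was higher by 0.74, 0.48 and 0.76 at the same times (SE 0.13 each, adjusted p = 6.15e-05, 0.00307 and 4.79e-05).

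C4H, the only Arabidopsis gene for the hydroxylase step, read 9.38, 9.29 and 9.24 in the jmj17-1 dark arrays, 9.99 and 10.09 at 2 h, 10.41 and 10.48 at 4 h, and 10.41 and 10.17 at 8 h. In WT it read 9.61, 9.51 and 9.49 in the dark, 10.02 and 10.28 at 2 h, 10.30 and 10.24 at 4 h, and 10.33 and 10.35 at 8 h. Its highest group mean was that of jmj17-1 at 4 h, and this was the single entry gene whose WT mean at 4 h was not below that at 2 h. Relative to dark it was higher in jmj17-1 by 0.73, 1.14 and 0.98 at 2, 4 and 8 h (SE 0.09 each, adjusted p = 3.89e-06, 4.96e-08 and 1.42e-07). In WT it was higher by 0.61, 0.73 and 0.80 (SE 0.09 each, adjusted p = 2.38e-05, 5.72e-06 and 1.29e-06).

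4CL3, the ligase gene linked to flavonoid rather than lignin synthesis, read 4.11, 4.71 and 4.42 in the jmj17-1 dark arrays, 5.49 and 5.25 at 2 h, 5.51 and 5.40 at 4 h, and 6.06 and 5.73 at 8 h. In WT it read 4.64, 4.17 and 4.37 in the dark, 5.31 and 5.49 at 2 h, 5.11 and 5.14 at 4 h, and 6.10 and 5.96 at 8 h. This probe set was dim in the dark, where only 7.99% of probe sets had a lower mean in jmj17-1 and 7.95% in WT. 4CL3 was higher than in dark by 0.96, 1.04 and 1.48 in jmj17-1 at 2, 4 and 8 h (SE 0.16 each, adjusted p = 5.88e-05, 3.25e-05 and 6e-07), and by 1.63 at 8 h without jmj17-1 dark replicate 2. In WT it was higher by 1.01, 0.73 and 1.64 (SE 0.16 each, adjusted p = 3.59e-05, 0.000848 and 1.75e-07).

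All 4 genes thus passed as higher in each comparison of light with dark. Among all probe sets 40.5% passed as higher in WT at 2 h, 31.3% at 4 h and 31.7% at 8 h. In jmj17-1 the shares were 31.9% at 4 h and 31.1% at 8 h. For jmj17-1 at 2 h the share was 42.7%, and 99.8% passed in either direction since the table was selected there, so nothing is read from the calls of the 4 genes in that comparison. The 3 light times of a genotype share its dark arrays. The medians of the 4 genes against dark were 0.75, 1.02 and 1.09 in jmj17-1 at 2, 4 and 8 h and 0.81, 0.61 and 0.90 in WT, beside medians over all probe sets of -0.34, -0.14 and -0.19 in jmj17-1 and -0.21, -0.10 and -0.20 in WT. A second scaling shifted the WT 2 h median of all probe sets by -0.13, after which PAL1, PAL2, C4H and 4CL3 still lay above 0.

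Between 2 and 4 h of light different entry genes passed in each genotype, and the difference itself, given further on, did not pass. In WT, PAL1 fell by 0.41 ± 0.12 between these times (adjusted p = 0.0119), the only one of the 4 genes to pass, where 26.8% of all probe sets passed as lower and 20.4% as higher. PAL2 at -0.26 ± 0.14, 4CL3 at -0.27 ± 0.18 and C4H at 0.12 ± 0.10 did not pass in WT, but without WT 2 h replicate 1 PAL2 was at -0.50 and passed as lower (adjusted p = 0.00911). In jmj17-1, C4H was higher at 4 h than at 2 h by 0.40 ± 0.10 (adjusted p = 0.00488), beside 20.6% of all probe sets, and PAL1 at 0.24, PAL2 at 0.27 and 4CL3 at 0.09 did not pass. PAL1 in WT had a difference of -0.27 (adjusted p = 0.135) without WT 2 h replicate 2 and of -0.28 (adjusted p = 0.139) without WT 4 h replicate 2. C4H in jmj17-1 had an adjusted p of 0.0504 without jmj17-1 2 h replicate 1.

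Between 4 and 8 h, WT transcripts of PAL1 and 4CL3 were higher by 0.54 ± 0.12 (adjusted p = 0.00258) and 0.91 ± 0.18 (adjusted p = 0.0009), where 17.3% of all probe sets passed as higher. PAL2 at 0.28 and C4H at 0.07 did not pass. In jmj17-1 none of the 4 genes passed, where 14.8% of all probe sets passed as higher and 34.8% in either direction. At an unadjusted p under 0.05 (limma) was 1 gene, and nothing is read from that count, since those shares do not cover this looser threshold. 4CL3 came nearest there, at 0.44 ± 0.18 (adjusted p = 0.0646), and it passed without jmj17-1 dark replicate 1 (adjusted p = 0.0369) or replicate 2 (adjusted p = 0.0271). The difference stayed at 0.44 in both fits, since dark arrays enter this step only through the spread shared by all groups.

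No entry gene differed between the genotypes at the threshold at any time. The jmj17-1 arrays all lay below the WT arrays for PAL1 and C4H in the dark and for PAL1 and PAL2 at 2 h, and above them for all 4 genes at 4 h. Among all probe sets they lay below for 9.8% in the dark and 33.4% at 2 h, and above for 21.4% at 4 h. Nothing is read from the 2 h count. At 8 h the arrays of both genotypes overlapped for each gene. None passed after adjustment in the dark, at 2, 4 or 8 h, or as the average of the 4 times. Of all probe sets 1.8%, 5.27%, 2.72%, 1.27% and 8.76% passed, in that order. At an unadjusted p under 0.05 (limma) were 1, 2, 1, 0 and 0 of the genes. The shares do not apply to that looser threshold, so nothing is read from these counts. The plot of genotype differences gives each difference with its interval.

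**Figure D2:**
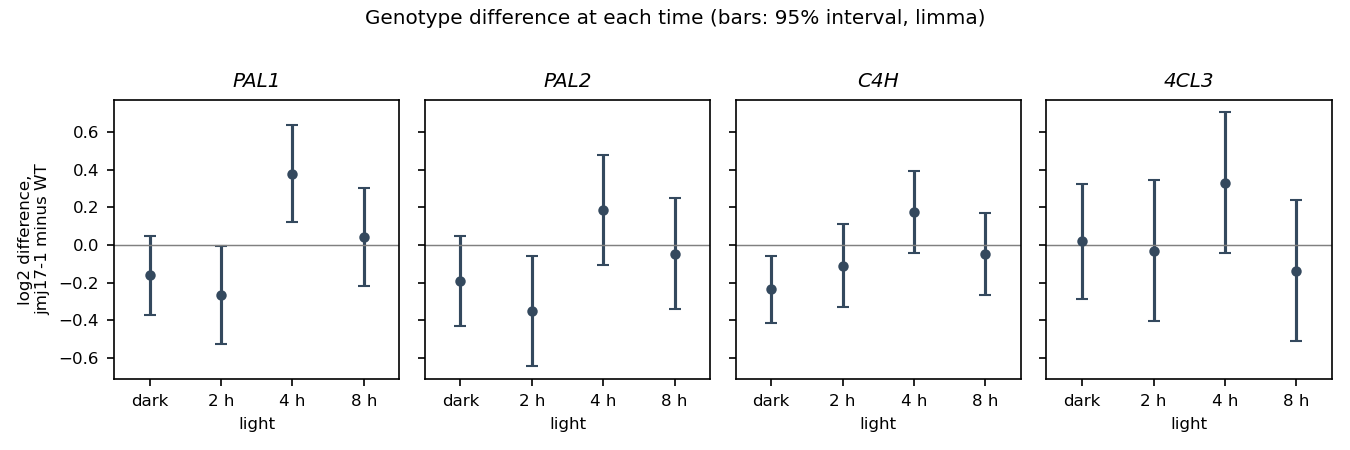
Log2 difference of jmj17-1 minus WT for PAL1, PAL2, C4H and 4CL3 (vertical axis) in the dark and after 2, 4 and 8 h of light (horizontal axis), as points with 95% intervals from limma on 18 arrays. The 4 points at 4 h lie above 0, from 0.18 to 0.38, and none of the 16 differences passed after adjustment.

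PAL1 differed by -0.16 (95% interval -0.37 to 0.05) in the dark, by -0.27 (-0.52 to -0.01) at 2 h, by 0.38 (0.12 to 0.64, adjusted p = 0.123) at 4 h and by 0.04 (-0.22 to 0.30) at 8 h. Its jmj17-1 arrays lay below every WT array in the dark and at 2 h and above both at 4 h. PAL2 differed by -0.19 (-0.43 to 0.05) in the dark, by -0.35 (-0.64 to -0.06, adjusted p = 0.158) at 2 h, by 0.18 (-0.11 to 0.48) at 4 h and by -0.05 (-0.34 to 0.25) at 8 h. Without WT 2 h replicate 1 the PAL2 difference at 2 h was -0.59 and passed (adjusted p = 0.0425), and without jmj17-1 dark replicate 2 that in the dark was -0.30.

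C4H differed by -0.23 (-0.41 to -0.06, adjusted p = 0.132) in the dark, by -0.11 (-0.33 to 0.11) at 2 h, by 0.18 (-0.04 to 0.39) at 4 h and by -0.05 (-0.27 to 0.17) at 8 h. Its 3 jmj17-1 dark arrays all lay below the 3 WT dark arrays. 4CL3 differed by 0.02 (-0.29 to 0.33) in the dark, by -0.03 (-0.40 to 0.34) at 2 h, by 0.33 (-0.04 to 0.70) at 4 h and by -0.14 (-0.51 to 0.24) at 8 h, and its differences in the dark and at 2 h changed sign when the arrays were centred on their medians. Without jmj17-1 dark replicate 2 the 4CL3 difference in the dark was -0.13. Non-overlap of this kind was common in the table. At 4 h the jmj17-1 arrays lay above the WT arrays for 21.4% of all probe sets, at 2 h they lay below for 33.4%, and in the dark they lay below for 9.8%. The epidermal gene PDF1 was higher in jmj17-1 than in WT at 2 h, by 0.46 ± 0.12 (adjusted p = 0.0356), and as the average of the 4 times, by 0.24 ± 0.06 (adjusted p = 0.0156), and its part in the differences at that time was not tested.

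The difference of the light responses between the genotypes was tested as an interaction. None of the 4 genes passed after adjustment at 2, 4 or 8 h, where 0.102%, 0.102% and 1.14% of all probe sets did. At an unadjusted p under 0.05 (limma) were 0, 2 and 0 genes, a looser threshold that those shares do not cover. At 4 h the response against dark was larger in jmj17-1 than in WT by 0.54 ± 0.16 for PAL1 (adjusted p = 0.159), 0.41 ± 0.13 for C4H (adjusted p = 0.202), 0.38 ± 0.18 for PAL2 (adjusted p = 0.385) and 0.31 ± 0.23 for 4CL3 (adjusted p = 0.6). Without jmj17-1 dark replicate 2 the interaction of 4CL3 was 0.10, against -0.05, at 2 h and 0.46 at 4 h, and no interaction of the 4 genes passed. The change between 2 and 4 h, a comparison added after these values were seen, was also more positive in jmj17-1, by 0.64 ± 0.17 for PAL1 (adjusted p = 0.219), 0.53 ± 0.19 for PAL2 (adjusted p = 0.406), 0.36 ± 0.25 for 4CL3 and 0.28 ± 0.14 for C4H. None of these passed after adjustment, where 0.102% of probe sets did. At an unadjusted p under 0.05 (limma) were 2 genes, and nothing is read from that count, since the share does not cover this looser threshold. For the change between 4 and 8 h none passed after adjustment, where 2.18% of probe sets did. There 0 genes had an unadjusted p under 0.05 (limma), a threshold that this share does not cover either. The values of that change were -0.34, -0.23, -0.47 and -0.22 for PAL1, PAL2, 4CL3 and C4H.

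Ordered by group mean, the dark groups were lowest for every gene and the 8 h groups highest for PAL1 and 4CL3. For PAL1 the order ran from jmj17-1 at 8 h (10.16) through WT at 8 h (10.11), WT at 2 h (9.98), jmj17-1 at 4 h (9.95), jmj17-1 at 2 h (9.71), WT at 4 h (9.57) and WT in the dark (9.11) to jmj17-1 in the dark (8.95). Neighbours in that order overlapped except jmj17-1 at 4 h above jmj17-1 at 2 h, WT at 4 h above WT in the dark, and WT in the dark above jmj17-1 in the dark. PAL2 had its highest mean in WT at 8 h (9.49) and its lowest in jmj17-1 in the dark (8.54), and the 4 highest groups overlapped in sequence. C4H ran from 10.44 in jmj17-1 at 4 h to 9.30 in jmj17-1 in the dark, and 4CL3 from 6.03 in WT at 8 h to 4.39 in WT in the dark.

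Over the 18 arrays the members moved together, with Pearson's r of 0.96 between PAL1 and PAL2, 0.92 between PAL1 and C4H, 0.93 between PAL2 and C4H, and 0.86 to 0.93 between 4CL3 and the others. These points share the light groups, and after group means were removed r was 0.76 for PAL1 with C4H, 0.64 for PAL1 with PAL2, 0.58 for PAL2 with C4H, and 0.55, 0.22 and 0.18 for 4CL3 with PAL2, C4H and PAL1. Among the 6514 probe sets that name 1 locus, PAL1 and PAL2 were close in pattern to each other: PAL1 was the nearest of all to PAL2, and PAL2 was the second nearest to PAL1, after COX15 (r = 0.967). The nearest to PAL2 after PAL1 were OMR1 (r = 0.95) and mtHsc70-1 (r = 0.944), and FAO3 followed PAL2 for PAL1 (r = 0.958). C4H was nearest to CYP81F4 (r = 0.973), CEP3 (0.966) and ATRPAC42 (0.964), and 4CL3 to AT3G21400 (0.974), AT3G27240 (0.973) and SAL1 (0.972). In the order of likeness to 4CL3, PAL1 held rank 251 and C4H rank 815.

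Most measured genes that feed the pathway passed as higher at 8 h. Here and in the lists below, measured loci are those present in the deposited table. That table was selected on jmj17-1 at 2 h against dark, so they are no neutral sample of a list. In the list of phenylalanine supply, which covers the shikimate enzymes, chorismate mutase and the arogenate dehydratases that make phenylalanine, 11 of 20 loci were measured. At 8 h, 9 of these 11 were higher and 1 lower in jmj17-1 (median 0.90), and again 9 higher and 1 lower in WT (median 0.81). All probe sets had medians of -0.19 in jmj17-1 and -0.20 in WT. Of them 31.1% were higher and 47.7% lower in jmj17-1, and 31.7% were higher and 48.6% lower in WT. At 4 h, 10 were higher and 0 lower in jmj17-1, and 6 were higher and 1 lower in WT, beside 31.9% of all probe sets higher and 44.4% lower in jmj17-1 and 31.3% higher and 40.1% lower in WT. The leading genes were ADT1, an arogenate dehydratase, at 1.71 in jmj17-1 and 1.95 in WT, CM1, a chorismate mutase, at 1.23 in jmj17-1 and 1.27 in WT, and SK2, a shikimate kinase, at 0.82 in jmj17-1 and 1.17 in WT. Between 2 and 4 h of light, 2 supply genes were higher and 4 lower in jmj17-1 (median -0.15), and 0 were higher and 7 lower in WT (median -0.53). Of all probe sets 20.6% were higher and 23.5% lower in jmj17-1, and 20.4% were higher and 26.8% lower in WT.

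Downstream, the flavonoid branch had the largest median of the lists. Of its 17 loci 9 were measured, and at 8 h 9 were higher in jmj17-1 (median 3.0) and 8 in WT (median 3.36). At that time 31.1% of all probe sets were higher and 47.7% lower in jmj17-1, and 31.7% were higher and 48.6% lower in WT. F3H, flavanone 3-hydroxylase, was at 5.08 in jmj17-1 and 5.56 in WT, CHS, chalcone synthase, at 5.27 in jmj17-1 and 5.11 in WT, and FLS1, flavonol synthase, at 4.32 in jmj17-1 and 4.25 in WT. The jmj17-1 dark mean of CHS includes the array that stood apart, whose CHS level was above that of every other dark array. The jmj17-1 value of CHS, and its nearness to that of WT, therefore depend on that array. In the monolignol branch 9 of 10 loci were measured, with 6 higher and 1 lower in jmj17-1 (median 0.59) and 5 higher and 1 lower in WT (median 0.37). Its leaders were FAH1, the ferulate 5-hydroxylase on the way to sinapate and syringyl lignin, at 3.30 in jmj17-1 and 2.51 in WT, CAD4, a cinnamyl alcohol dehydrogenase, at 1.11 in jmj17-1 and 1.32 in WT, and OMT1, a methyltransferase, at 0.68 in jmj17-1 and 0.78 in WT. Of 3 measured genes of the sinapate and glycoside list, of 9 loci, the glucosyltransferases UGT84A2 (1.57 in jmj17-1 and 2.30 in WT) and UGT84A1 (1.64 and 1.21) were higher and UGT72E1 was lower (-0.43 and -1.11). UGT84A2 also passed for the change between 4 and 8 h, which was smaller in jmj17-1 than in WT by -1.0 on the log2 scale (adjusted p = 0.0424), a comparison added after the values were seen. The plot by branch shows these changes.

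**Figure D3:**
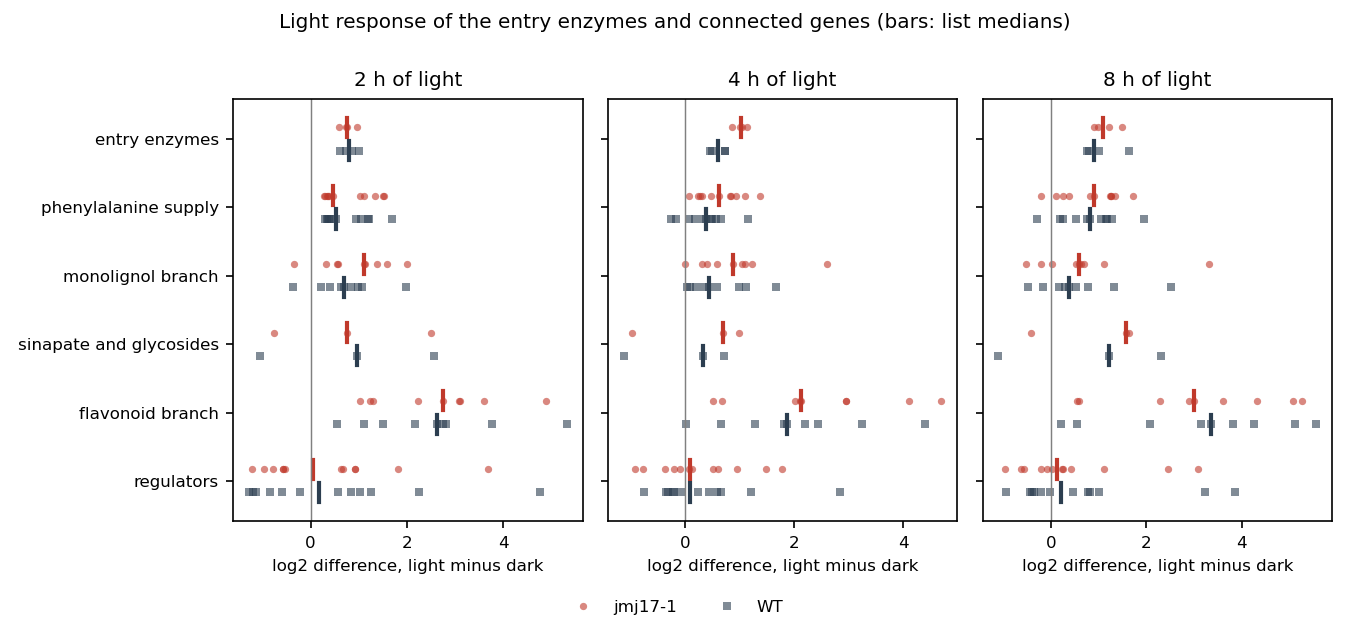
Log2 difference of light minus dark (horizontal axes) for each measured gene of the entry enzymes and connected lists (rows) at 2, 4 and 8 h, jmj17-1 as circles above WT as squares, with vertical bars for list medians. At 8 h the flavonoid medians are 3.0 in jmj17-1 and 3.36 in WT, against 1.09 and 0.90 for the entry enzymes.

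Relatives and partners of the entry enzymes were mixed. Among 3 measured loci of the 9 in the list of 4CL-like acyl-CoA ligases, AT5G63380 was higher at 8 h (0.91 in jmj17-1 and 0.93 in WT), AT1G20490 was lower (-0.65 and -0.80), and OPCL1, a ligase of jasmonate synthesis, did not pass (-0.03 and -0.20). The reductases that pass electrons to P450 enzymes such as C4H, ATR1 and ATR2, were the 2 measured of 5 loci in the list of other entry isoforms and reductases. ATR1 was lower at 8 h, by -0.90 in jmj17-1 and -0.82 in WT, and ATR2 did not pass at 8 h (-0.05 and -0.06) but was higher at 2 h (0.28 and 0.69). Nothing is read from its jmj17-1 call at 2 h, where the table was selected. C4H transcripts and those of ATR1 thus changed in opposite directions at 8 h in both genotypes.

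The regulator list, of 21 loci with 12 measured, held 5 higher and 4 lower genes in jmj17-1 and 6 higher and 5 lower in WT at 8 h. The shares over all probe sets were 31.1% higher and 47.7% lower in jmj17-1 and 31.7% higher and 48.6% lower in WT, so nothing is read from these counts. HYH, a bZIP factor of light signalling, was at 2.45 in jmj17-1 and 3.85 in WT, MYB12, an activator of flavonol genes, at 3.09 in jmj17-1 and 3.23 in WT, and KFB-CHS, an F-box protein that targets chalcone synthase, at 1.10 in jmj17-1 and 1.01 in WT. None of the 12 passed in the interaction at 8 h, or between genotypes in the dark or at 8 h. Over the 12, jmj17-1 minus WT ran from -0.26 to 0.99 in the dark and from -0.41 to 0.12 at 8 h. The genes KFB01, KFB20, KFB39 and KFB50 encode Kelch F-box proteins known to mark PAL proteins for breakdown, and they are described here because of their values. At 2 h all 4 were lower than in dark. In jmj17-1 they lay at -0.58, -0.96, -1.22 and -0.79, and in WT at -0.85, -1.14, -1.28 and -1.19, beside 57.1% of all probe sets lower in jmj17-1 and 49% in WT at 2 h. The table was selected on jmj17-1 at 2 h against dark, so nothing is read from the jmj17-1 calls of these genes there.

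By array, KFB39 read 10.31, 10.13 and 10.29 in the jmj17-1 dark group, 8.93 and 9.12 at 2 h, 10.34 and 10.38 at 4 h, and 10.50 and 10.47 at 8 h. In WT it read 10.26, 10.49 and 10.44 in the dark, 9.16 and 9.08 at 2 h, 10.46 and 10.17 at 4 h, and 10.33 and 10.40 at 8 h. The low values were thus confined among these times to 2 h. KFB01, in contrast, was still at -0.93 and -0.64 in jmj17-1 and at -0.76 and -0.96 in WT at 4 and 8 h against dark, while KFB20 and KFB50 lay between -0.37 and -0.09 at these times. The plot of F-box and reductase genes shows each array.

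**Figure D4:**
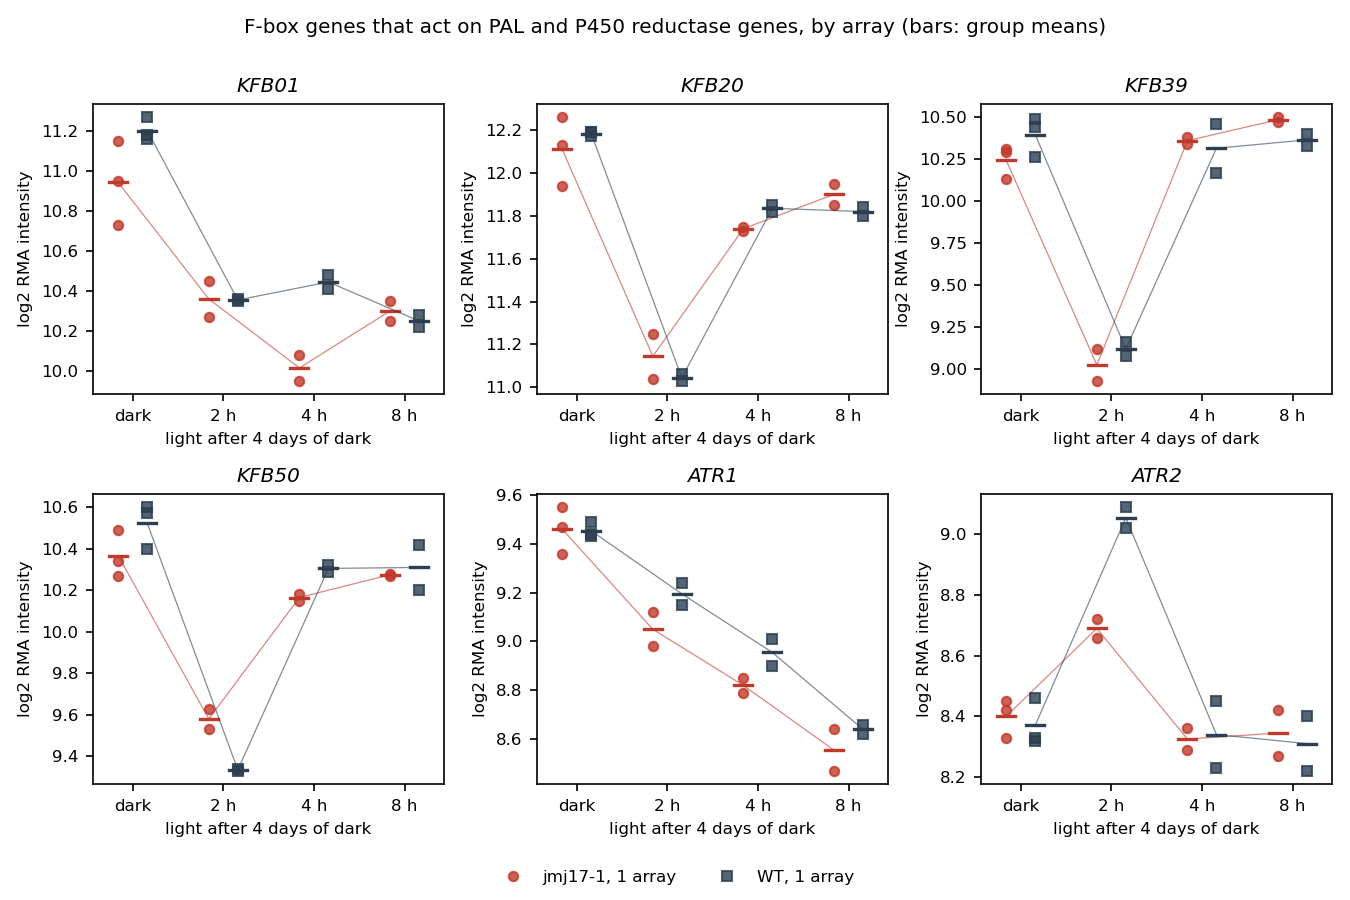
Log2 RMA intensity (vertical axes, a separate scale for each gene) of KFB01, KFB20, KFB39 and KFB50, which encode F-box proteins that act on PAL, and of the reductase genes ATR1 and ATR2, in the dark and after 2, 4 and 8 h of light, with 1 point per array, jmj17-1 as circles, WT as squares and short bars joined by thin lines for group means. KFB39 is lowest at 2 h, at 8.93 to 9.16, and ATR1 is lowest at 8 h in both genotypes.

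Between genotypes only a few of these connected genes passed. FAH1 read 2.96, 3.24 and 3.14 in jmj17-1 dark arrays and 3.34, 3.49 and 3.40 in WT dark arrays, 4.79 and 4.62 in jmj17-1 and 4.09 and 4.12 in WT at 2 h, 5.70 and 5.73 in jmj17-1 and 4.91 and 5.24 in WT at 4 h, and 6.64 and 6.19 in jmj17-1 and 6.06 and 5.78 in WT at 8 h. Its jmj17-1 arrays were thus below WT in the dark, as for 9.8% of all probe sets, and above WT at each light time. At 4 h they lay above for 21.4% of all probe sets, and the shares above at 2 and 8 h are not given here. FAH1 passed as higher in jmj17-1 at 2 h (0.60 ± 0.15, adjusted p = 0.0295), at 4 h (0.64 ± 0.15, adjusted p = 0.0326) and as the average of the 4 times (0.36 ± 0.07, adjusted p = 0.00561), but not at 8 h (0.50 ± 0.15, adjusted p = 0.118). It was among the dimmest probe sets in the dark, where 1.26% had a lower mean in jmj17-1 and 2.31% in WT. Its interactions were 0.90, 0.93 and 0.80 at 2, 4 and 8 h (adjusted p = 0.0685, 0.0751 and 0.0535), and the genotype calls at 2 and 4 h were lost when single arrays were left out. At 2 h FAH1 had an adjusted p of 0.138 and 0.0763 without WT replicate 1 and 2, and of 0.198 and 0.0951 without jmj17-1 replicate 1 and 2. At 4 h it had 0.213 without WT replicate 1, and 0.166 and 0.229 without jmj17-1 replicate 1 and 2.

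The other genotype calls in the pathway lists were DHS1, an enzyme at the start of the shikimate pathway, lower in jmj17-1 in the dark (-0.48 ± 0.11, adjusted p = 0.045), and ATR2 (-0.37 ± 0.10, adjusted p = 0.0423) and OPCL1 (-0.44 ± 0.12, adjusted p = 0.0448), lower in jmj17-1 at 2 h. Both 2 h calls were lost under another scaling (adjusted p of 0.0943 for ATR2 and 0.061 for OPCL1), and the DHS1 call had an adjusted p of 0.21 without WT dark replicate 3. In the flavonoid list at 4 h all 9 measured genes lay above 0 in jmj17-1 minus WT, with a median of 0.59. Among all 6847 probe sets 3192 lay above 0. None of the 9 passed, and 4 were at an unadjusted p under 0.05 (limma). Without jmj17-1 dark replicate 2, UGT89C1 (0.59, adjusted p = 0.00959) and CHI (0.47, adjusted p = 0.0466) passed. Their differences at 4 h stayed the same, since dark arrays enter them only through the spread shared by all groups. In the phenylalanine supply list at the same time 10 of 11 lay above 0, with a median of 0.16, beside a median of -0.01 over all probe sets. None of the 11 passed, and 3 were at an unadjusted p under 0.05 (limma). The share of all probe sets at that unadjusted threshold is not given here, so nothing is read from the counts at it.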

How the data were processed

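Per the file headers, the authors summarized the ATH1 arrays by RMA with quantile normalization and listed probe sets by a moderated test. Arrays were read with GCOS 1.4, per the submitters' processing notes. The deposited intensity values are linear, and their log2 was analysed. A second set of deposited columns and the second file hold log2 values relative to the probe set's median, used as a check and an alternative. Array background is unknown here. A group-means model over the 18 arrays was fitted with limma 3.58.1 (R 4.3.3), with 10 residual and 4.91 prior degrees of freedom. Genes were called below 0.05 after Benjamini-Hochberg adjustment across 6847 probe sets. The fit was tested on simulated data. Probe sets naming 1 locus stood for genes, with symbols from the files and RefSeq TAIR10.1.

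Members and lists were chosen with earlier results of these data known. The text names all members, from each other list the 3 largest differences among calls in WT at 8 h and in each genotype comparison and interaction, and the 3 probe sets most like each member by Pearson's r. OPCL1, ATR2 and the KFB genes in light, UGT89C1 and CHI were named after their values were seen. Alternatives were other scalings, pseudocounts, array weights, a filter on dim probe sets, the replicate block, only the arrays compared, and arrays left out.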

Additional observations from a re-analysis of the deposited data

How the results depend on the processing

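Across the planned settings, the light calls of the 4 genes against dark held wherever the gene was tested, except that nothing is read from jmj17-1 at 2 h, where the table was selected (4CL3 was not among the probe sets left without the dimmest 40 percent). Of 1922 values of these genes over the planned settings, 1868 kept their sign and side of the threshold, 12 came to pass and 5 no longer passed. Another 37, in 16 differences, changed sign, and 0 of these 37 belonged to a difference that had passed. Between 2 and 4 h in jmj17-1, 3 members passed with only the arrays compared or with array weights, against 1; between 4 and 8 h in jmj17-1, 1 member passed with only the arrays compared, repeated quantile normalization, pseudocount 16 or array weights, against 0. Between 2 and 4 h in WT, 0 passed with only the arrays compared or repeated quantile normalization, against 1, and between 4 and 8 h, 1 passed without the dimmest 40 percent, which removed 4CL3, against 2. With single arrays left out, counts ran from 0 to 1 between genotypes at 2 h, from 0 to 1 for both jmj17-1 steps, and from 0 to 2 between 2 and 4 h in WT. Taking the mean of several probe sets was not run, since each member has 1.

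By its own sample labels, an alternative added after seeing the data, the second file gave 0 of 4 members passing at 4 and 8 h against dark in jmj17-1, at 2, 4 and 8 h against dark in WT, and in both WT steps, and 4 of 4 between 2 and 4 h in jmj17-1. Over all 6847 probe sets 0 passed in each of those WT comparisons and in jmj17-1 at 8 h, 192 in jmj17-1 at 4 h, and 2718 between 2 and 4 h in jmj17-1, so the counts of 0 say nothing particular about the members. PAL1, PAL2, C4H and 4CL3 were then at -1.13, -0.828, -1.07 and -1.44 in jmj17-1 at 2 h against dark, where all 4 passed as lower (adjusted p = 0.0156, 0.0257, 0.014 and 0.014) among 3063 probe sets, at -0.228, -0.0415, -0.273 and -0.363 at 4 h, and PAL1, C4H and 4CL3 at -0.0113, -0.146 and -0.0042 at 8 h, with PAL2 at 0.00245. In WT they were at -0.482, -0.428, -0.604 and -0.81 at 2 h and at -0.214, -0.338, -0.476 and -0.221 at 4 h, at 0.0309, 0.0142, 0.0604 and 0.112 at 8 h, and PAL1 was at 0.268 between 2 and 4 h. Which labels are right was not tested.

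Same-numbered jmj17-1 and WT arrays had correlations of deviations from group means of -0.034 to 0.215. In groups of 2 arrays the value is the same for both replicate numbers by construction. Whether the replicate numbers pair the samples therefore cannot be decided here. With the replicate block 4 members still passed at 8 h in WT against dark, and no member count moved. The array background is unknown, so what dim probe sets such as 4CL3 in the dark can show is limited.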
